A study of Homo sapiens with 12 samples.

Results

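The regions described here set the CDK8 knockdown apart in the H3K27ac map of a breast cancer cell line. They were chosen by where peaks were listed. Peaks of all 9 lists on chromosomes 1 to 22 were merged wherever they overlapped or touched, which gave 117312 merged regions. A region was called gained if all 3 CDK8 knockdown lists, and none of the other 6, had a peak in it, and 285 regions met this. It was called lost if all 6 other lists and no CDK8 knockdown list had a peak in it, and 113 regions met this. The members are thus 398 of 117312 regions, 0.243% gained and 0.0963% lost. Peak calls of all 9 libraries chose them, so every comparison of peaks between the groups below is a description, without a test.

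H3K27ac, acetylation of lysine 27 of histone H3, is laid down by the acetyltransferases p300 and CBP and marks active promoters and enhancers. Mediator is the complex that links factors bound at such enhancers to RNA polymerase II. CDK8 and CDK19 are closely related kinases, either of which can join cyclin C, MED12 and MED13 in the kinase module that binds Mediator reversibly. The kinases act on transcription factors and on the transcription machinery and are not themselves histone acetyltransferases.

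The study mapped H3K27ac by ChIP-seq of native, unfixed chromatin from 250000 to 500000 MDA-MB-231 cells per library, 96 h after lentiviral infection. MDA-MB-231 is a triple-negative line of mesenchymal character derived from a metastatic breast cancer. The groups were Control (virus labelled EV-control), CDK19KD (an shRNA against CDK19) and CDK8KD (an shRNA against CDK8), with 3 libraries each. All cells carried a lentivirus, and the labels name neither the number of hairpins per kinase nor the level of either kinase, so the knockdowns were not checked here. Nothing in the labels says that the libraries of a group came from separate cultures, so the spread between them may be technical. Libraries labelled Input were left aside, and no annotation or genome sequence of the files' build, hg19, was used. Regions are therefore named by position, and nearest genes, marker genes of the cell line and sequences were not analysed. Coordinates are those of hg19, counted from 1.

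The lists differed before any comparison. On chromosomes 1 to 22 they held from 60958 to 85366 peaks and covered from 256 to 311 Mb. Control replicates 2 and 3 stood apart, with 12850 and 12615 regions that no other library held, against 1482 to 4786 for the other 7. The read depth is not given in the sources used here, so values carry no counting error.

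**Figure D1:**
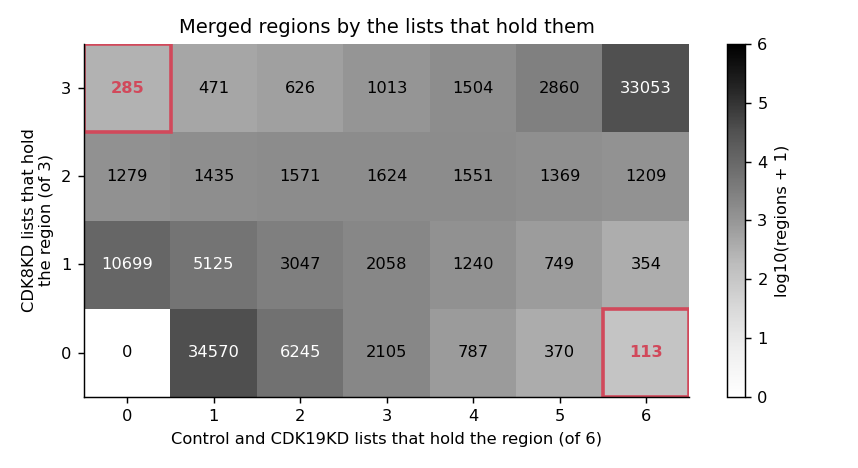
Number of merged regions by how many CDK8KD lists (vertical axis, of 3) and how many Control and CDK19KD lists (horizontal axis, of 6) held them. Shade gives log10(regions + 1), and the red outlines mark the 285 gained and 113 lost regions, next to 33053 regions held by all 9 lists in the remaining outer corner.

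The same rule turned on the other groups gave numbers of the same order. CDK19KD had 288 gained (0.245% of merged regions) and 120 lost regions (0.102%). Control had 115 gained (0.098%) and 100 lost (0.0852%). Among the 6872 regions held by exactly 3 lists, 4.15% were those gained in CDK8KD, 4.19% those gained in CDK19KD and 1.67% those gained in Control. Among the 3426 regions held by exactly 6 lists, 3.30% were those lost in CDK8KD, 3.5% those lost in CDK19KD and 2.92% those lost in Control. In number, CDK8KD and CDK19KD were thus within 3 gained and 7 lost regions of each other.

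Members were weak peaks. Each peak carries the −log10 of its p-value and a fold enrichment, both from the authors' peak caller, and a region takes the highest value of its peaks in a library. Peaks in the lists start at a −log10 p of about 2. In the gained regions the median −log10 p was 2.80, 2.76 and 3.05 in CDK8KD replicates 1, 2 and 3, where the medians of the whole lists were 4.84, 3.51 and 3.9. As a percentile of the own list, where 100 is the strongest peak, these medians stood at 19.3, 31.4 and 34.7. The median fold enrichment of gained regions was 2.31, 2.34 and 2.37. Over the CDK8KD libraries, the mean percentile of a gained region ran from 3.04 to 64.2 with a median of 27.7, and 7 of 285 exceeded 50. A −log10 q of at least 5 was reached by 0, 0 and 6 gained regions in CDK8KD replicates 1, 2 and 3, against 40.0%, 26.4% and 33.4% of all peaks of those lists. CDK8KD replicate 3 had the highest −log10 p in 150 of the 285 gained regions and the highest percentile in 145, and replicate 1 had the lowest median percentile.

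Lost regions were weak in the 6 lists that held them, too. Their median −log10 p was 3.01, 2.95 and 2.84 in Control replicates 1, 2 and 3, and 3.12, 2.97 and 3.46 in CDK19KD replicates 1, 2 and 3. The medians of the whole Control lists were 4.94, 3.18 and 3.39, and those of the CDK19KD lists 4.98, 3.48 and 5.25. The mean percentile ran from 13.5 to 60.8 with a median of 34.2, and 10 of 113 exceeded 50. CDK19KD replicate 3 had the highest −log10 p in 51 of the 113, more than any other library, and its values reached 11.9. By percentile within the own list, which allows for the higher values of that list as a whole, it was highest in 14, against 47 for Control replicate 2 and 28 for Control replicate 3. A −log10 q of at least 5 was reached in 0 to 2 lost regions per Control library and in 4, 0 and 11 in CDK19KD replicates 1, 2 and 3.

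**Figure D2:**
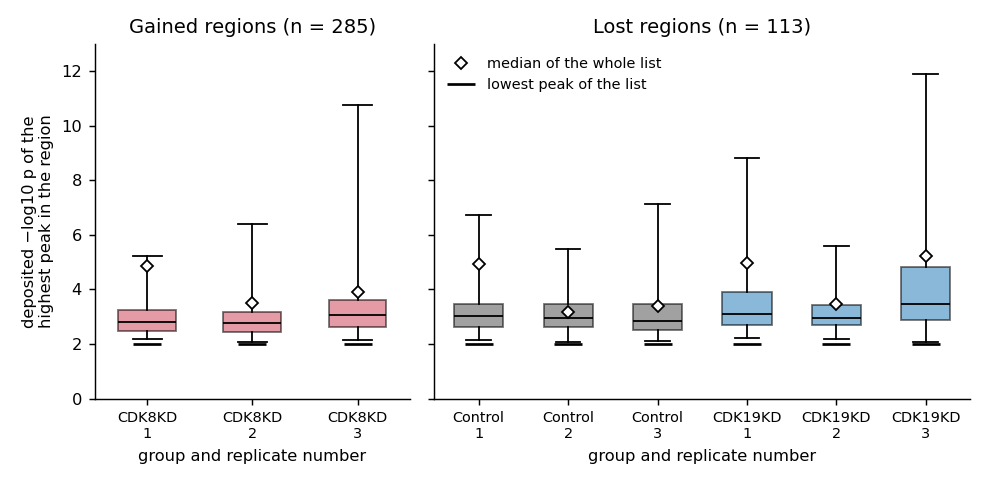
Deposited −log10 p of the highest peak in each gained region (left, 285 regions, CDK8KD libraries) and lost region (right, 113 regions, Control and CDK19KD libraries). Boxes span the quartiles with the median as a line, whiskers reach the lowest and highest member, diamonds are medians of the whole lists and short bars their lowest peaks. The medians of members lie below those of their lists in all 9 libraries, between 2.76 and 3.46.

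Members were narrower than regions held by all 9 lists and wider than the median merged region. Gained regions had a median width of 2467 bp, with quartiles of 1541 and 3349 bp and a range of 468 to 10337 bp. Other regions held by exactly 3 lists had a median of 2013 bp, and all merged regions 1933 bp. By the same rule, regions gained in CDK19KD had a median of 2312 bp and those gained in Control 1988 bp. Lost regions had a median of 3393 bp, from 652 to 14036 bp, and other regions held by exactly 6 lists 3179 bp. Regions lost in CDK19KD had a median of 3016 bp and those lost in Control 3318 bp, so such widths were not particular to CDK8KD. Regions held by all 9 lists, called constant from here on, had a median of 7640 bp. All gained regions together came to 783 kb and all lost regions to 408 kb.

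The peaks that make up a member often met at their edges. In 255 of the 285 gained regions (89.5%) each CDK8KD list had a single peak. The stretch covered by all 3 of those lists had a median of 353 bp, 16.8% of the region. In 49 gained regions (17.2%) no base was covered by all 3, so that peaks lying side by side were joined by one that bridged them. A shared stretch spanned at least 50% of the region in 25. Among lost regions 45 of 113 (39.8%) had no base covered by all 6 lists, and none (0) had a shared stretch of 50%. Lists that hold the same member therefore need not have a peak at the same base.

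The rule allows no overlap between a member and a peak of the lists that lacked it, and most gaps exceeded 1000 bp. No like gap is given here for other regions, so these values do not show whether members were unusually isolated. From a gained region to the nearest peak of any Control or CDK19KD list the median gap was 4982 bp, and 24 of 285 gaps (8.42%) were within 1000 bp. From a lost region to the nearest CDK8KD peak the median gap was 8170 bp, and 7 of 113 (6.19%) were within 1000 bp. The farthest gained region from such a peak, at 109736 bp, lay at chr6:89201236-89202573. Its mean percentile was 18, below the median of the gained regions.

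The strongest gained region by mean percentile lay at chr20:10045998-10047394. Its −log10 p was 4.47, 6.32 and 8.30 in CDK8KD replicates 1, 2 and 3, with a fold enrichment of 2.86, 3.55 and 3.49. The peaks covered 1253, 848 and 623 bp of its 1397 bp, so the library with the strongest peak had the shortest one. The second, chr17:9670488-9673759, had −log10 p values of 4.72, 5.33 and 7.08 and lay 27887 bp from the nearest peak of the other 6 lists. All 3 CDK8KD lists covered 1807 bp of its 3272 bp, 55.2%. The fifth, chr17:72188251-72191933, had the larger shared stretch, 2477 bp or 67.3%, with values of 4.24, 2.82 and 9.90.

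The values of other strong gained regions were uneven between the CDK8KD libraries. The third, chr9:137341799-137343509, had 4.92, 2.77 and 9.90, and the fourth, chr10:81133469-81136202, had 2.89, 4.0 and 10.7. In both, replicate 3 was far above the others. The sixth, chr21:48116993-48120008, had 3.32, 4.67 and 4.81 and ended with the outermost peak of its chromosome. The seventh, chr18:56722375-56726171, had 4.93, 3.19 and 4.74. The eighth, chr12:50464616-50467041, had 3.67, 3.48 and 5.37 so these last 3 were more even. At the other end, chr1:20041099-20042634 had 2.32, 2.08 and 2.23 and chr12:1761599-1763230 had 2.28, 2.08 and 2.33, all close to the lowest values in the lists.

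The widest gained regions rested on CDK8KD replicate 3. At chr10:120734196-120744532, the widest at 10337 bp, its peaks covered 9999 bp, those of replicate 1 521 bp and those of replicate 2 1553 bp. At chr20:62834279-62844029 it covered 7792 bp, against 1781 and 2622 bp. At chr17:238659-247924 it covered all 9266 bp, against 2375 and 2570 bp.

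Of the lost regions, the strongest lay at chr4:37471136-37475859. Its −log10 p was 3.53, 3.53 and 7.14 in Control replicates 1, 2 and 3, and 7.21, 4.81 and 9.50 in CDK19KD replicates 1, 2 and 3. The nearest CDK8KD peak was 7096 bp away. The widest lost region, chr2:72792597-72806632, had 3.21, 3.37 and 2.49 in Control and 8.81, 5.59 and 11.9 in CDK19KD. CDK19KD peaks covered 10911, 9307 and 14036 bp of it and Control peaks 3633, 3167 and 1314 bp. The lengths in CDK19KD thus all exceeded those in Control. The percentiles of this region were also all higher in CDK19KD, at 67.5, 73.1 and 73.4, than in Control, at 30.3, 54.3 and 19.1. It was also remote, 212228 bp from the nearest constant region.

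Between libraries, −log10 p moves with the values of the whole list, so the other strong lost regions are also given by percentile within the own list. They had no common order of Control and CDK19KD. The share of all lost regions in which these groups did not overlap is not given here, so the regions named are single cases. At chr15:51037548-51041566 the Control values were 5.42, 3.31 and 2.26 and the CDK19KD values 7.38, 4.96 and 9.51, which overlap, while the percentiles of 53.1, 53.1 and 7.8 against 62.3, 68.1 and 67.1 did not. At chr11:77070462-77074461 they were 4.29, 2.59 and 3.55 against 6.76, 5.11 and 8.45, and neither these nor the percentiles overlapped. The groups overlapped on both scales at chr6:56353752-56361458, where Control had 5.67, 3.59 and 5.23 and CDK19KD 4.15, 3.95 and 3.05. At chr8:32588174-32592429 the groups overlapped on both scales too, with −log10 p values of 3.96, 4.36 and 3.82 against 4.18, 3.42 and 5.49. The region at chr4:75147643-75153652 (3.11, 4.26 and 4.68 against 5.98, 3.40 and 9.04) had another lost region, chr4:75033164-75035860, within the same 1 Mb. The shortest lost region, chr1:161575822-161576473, 652 bp wide, had 6.73, 3.02 and 4.48 in Control and 3.59, 3.53 and 7.21 in CDK19KD. The weakest lost regions were chr6:145038666-145041462 and chr2:173123964-173127243, with mean percentiles of 13.5 and 15.8.

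A larger share of gained regions than of other regions lay near chromosome ends. Distance was taken to the outermost peak of any list on the chromosome, over 39 ends (17 starts and 22 far ends), since on 5 chromosomes the first peak lay beyond the first 1 Mb. Subtelomeric DNA, the stretch next to the telomere repeats, is rich in genes on many human chromosome arms. Within 5 Mb of an end lay 75 of the 285 gained regions (26.3%), against 8.47% of the other regions held by exactly 3 lists and 8.73% of all merged regions. Of these 75, 37 lay within 0.5 Mb, which is 13% of gained regions against 1.48% of all merged regions. Of lost regions 3 of 113 (2.65%) lay within 5 Mb, against 7.03% of the other regions held by exactly 6 lists. With the 40000 strongest peaks per list the share of lost regions was 6.56%, closer to the 8.77% of all regions.

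The regions of the other groups had other shares. Within 5 Mb of an end lay 5.90% of the regions gained in CDK19KD and 2.61% of those gained in Control. The shares were 9.17% for regions lost in CDK19KD and 15.0% for regions lost in Control, which by the rule are held by all CDK8KD libraries. None of these differences in share was tested. Gained members within 5 Mb of an end had a median width of 2888 bp and a median mean percentile of 30.3, and the others 2316 bp and 26.8. The share was 25% in the 236 gained regions with a stretch common to all 3 CDK8KD lists and 32.7% in the 49 without.

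**Figure D3:**
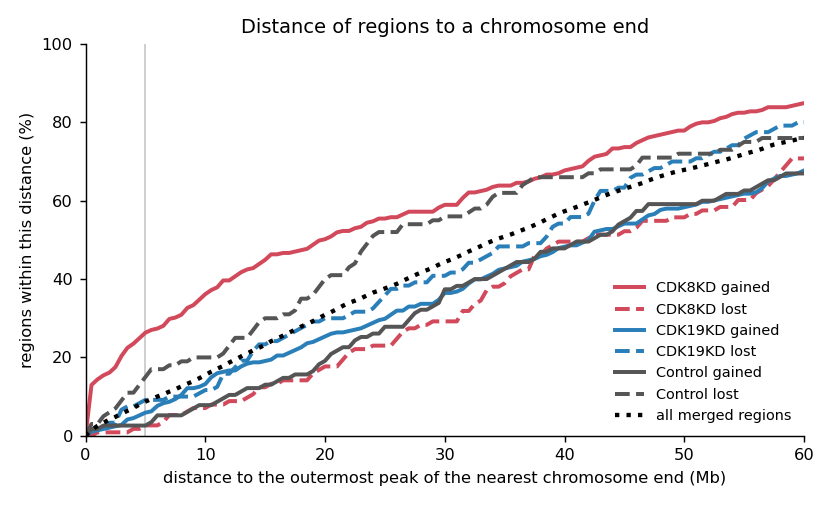
Cumulative share of regions (vertical axis, %) within a given distance (horizontal axis, Mb) of the outermost peak at the nearest chromosome end, for gained (solid) and lost (dashed) regions of each group and for all merged regions (dotted); the grey line marks 5 Mb. Within 5 Mb lie 26.3% of regions gained in CDK8KD, 2.65% of those lost in CDK8KD and 8.73% of all merged regions.

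With weak peaks left out, the rule picked other regions, and their share near ends was lower. No gained member was among them, because none had such a strong peak in CDK8KD replicate 1. These shares therefore do not tell how the position of the members depends on their weak peaks. When each list was limited to its 20000 strongest peaks, 13 of 106 gained regions (12.3%) lay within 5 Mb of an end, against 9.33% of all regions. With a −log10 q of at least 5 it was 5 of 32 (15.6%), against 9.29%. With all peaks kept and each library left out in turn, the share of gained regions near ends was never below 21.8%, the value without CDK8KD replicate 3. Without chromosomes 7 and 17 it was 21.4%.

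Gained regions were spread over 30 of the 39 end zones of 5 Mb, and 17 of these held at least 2. The start of chromosome 17 had the most, 12 of its 416 merged regions. It was followed by the start of chromosome 7 with 7 of 291 and the far end of chromosome 20 with 5 of 230. No gained region lay in 9 end zones, among them the far ends of chromosomes 1, 19 and 22, with 248, 274 and 173 merged regions. Over all chromosomes 0.243% of merged regions were gained, so few would be looked for in any such zone. Lost regions occurred in 2 end zones.

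In windows of 1 Mb, the first of chromosome 17 held 9 gained regions among 112 merged regions. The first of chromosome 7 held 6 among 79, while 204 windows held 1 gained region each. The 9 members of the chromosome 17 window lay between positions 22582 and 296622. They included chr17:238659-247924, chr17:250045-252663, chr17:270968-274134, chr17:280424-283112, chr17:287766-290567 and chr17:291921-296622, a run of 6 within 60 kb. The strongest of the 9, chr17:250045-252663, had −log10 p values of 2.97, 3.40 and 3.41. The weakest, chr17:280424-283112, had 2.72, 2.46 and 2.23 and no base common to the 3 lists.

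The surroundings of these members differed between libraries as well. Outside the members, peaks covered 256, 379 and 537 kb of the chromosome 17 window in CDK8KD replicates 1, 2 and 3. The Control values were 137, 163 and 301 kb, and the CDK19KD values 144, 183 and 203 kb. CDK8KD was the highest in each replicate number, and the groups overlapped, since Control replicate 3 exceeded CDK8KD replicate 1. In the first 1 Mb of chromosome 7 CDK8KD covered 204, 282 and 379 kb outside the members. Control covered 145, 140 and 198 kb there, and CDK19KD 129, 153 and 192 kb. All CDK8KD values lay above all others in that window. Its members ran from chr7:40155-47206 to chr7:507147-509793, and the strongest was chr7:418269-421018 with −log10 p values of 3.82, 3.94 and 3.57. The first 1 Mb of chromosome 1, with 3 members, had 196, 218 and 299 kb in CDK8KD, 115, 123 and 134 kb in Control and 106, 105 and 126 kb in CDK19KD outside them. Of the 7 windows with at least 3 members, CDK8KD lay above all other libraries in 3, on chromosomes 1, 7 and 10, and overlapped with them in 4, on chromosomes 5, 12, 16 and 17. These windows were picked for their members, so their values describe the place and support nothing further.

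Over all chromosome ends the same order was seen in smaller steps, with the members left out. Of the length covered by peaks, 8.72%, 9.98% and 11.1% lay within 5 Mb of an end in CDK8KD replicates 1, 2 and 3. In Control it was 8.02%, 7.10% and 9.42%, and in CDK19KD 7.93%, 8.37% and 9.64%. The means were 9.93% ± 1.19 (SD, n = 3) in CDK8KD, 8.18% ± 1.17 (SD, n = 3) in Control and 8.65% ± 0.886 (SD, n = 3) in CDK19KD. The 3 groups overlapped, because in each group replicate 3 was the highest. At equal replicate number CDK8KD exceeded Control by 0.699, 2.88 and 1.68 percentage points and CDK19KD by 0.787, 1.60 and 1.47. The CDK8KD libraries, which hold the gained members, thus also had the larger share of other peak length near ends at each number. Its part in the position of the gained regions was not tested.

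**Figure D4:**
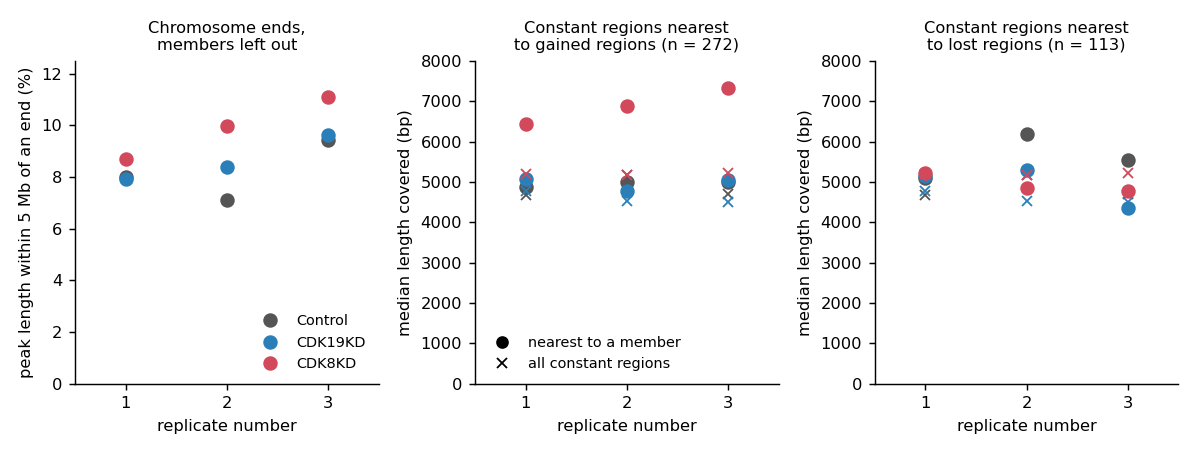
Left, share of peak length within 5 Mb of a chromosome end (%) in each library, members left out, by replicate number. Middle and right, median length (bp) that each library's peaks cover in the constant regions nearest to gained (272 constant regions) and lost members (113), with crosses for all 33053 constant regions. CDK8KD libraries cover 6428 to 7332 bp next to gained members, above the 4771 to 5062 bp of the other 6.

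Constant regions beside gained members were also more widely covered in CDK8KD. The 285 gained regions had 272 distinct nearest constant regions, at a median gap of 9919 bp. In these, CDK8KD peaks covered a median of 6428, 6872 and 7332 bp in replicates 1, 2 and 3. Control peaks covered 4874, 4987 and 5000 bp, and CDK19KD peaks 5062, 4771 and 5043 bp. The group means were 6877 ± 452 bp (SD, n = 3) in CDK8KD, 4953 ± 69.4 bp (SD, n = 3) in Control and 4959 ± 163 bp (SD, n = 3) in CDK19KD. Every CDK8KD library lay above every other library. The same order held over all 33053 constant regions, so it was not confined to neighbours of members. There the medians were closer, 5168 to 5217 bp in CDK8KD and 4507 to 5162 bp in the other 6. Set against its own median over all constant regions, a CDK8KD library covered 1.24 to 1.41 times as much beside gained members, and the other 6 libraries 0.966 to 1.12 times. The neighbours of the regions gained in CDK19KD did not have this order. There the CDK8KD libraries covered 4676, 4176 and 4006 bp, the CDK19KD libraries 4942, 4145 and 4275 bp and the Control libraries 4486, 4660 and 3294 bp, so all 3 groups overlapped. The order did recur beside other sets of regions that CDK8KD lists hold. Beside the regions lost in Control, CDK8KD covered 6045, 5856 and 6156 bp, CDK19KD 5291, 4520 and 4983 bp and Control 4512, 4011 and 4336 bp. Like orders were seen for the other groups. Beside the regions gained in Control, Control covered 4881, 5966 and 5166 bp, and every other library 4099 to 4723 bp. Beside the regions lost in CDK19KD, CDK19KD covered 5049.5, 4430 and 4296.5 bp, and every other library 5373 to 5938.5 bp. Neighbours covered most widely by the group that sets regions apart were thus not particular to CDK8KD.

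Beside lost members the groups overlapped. The nearest constant regions, 113 of them at a median gap of 12391 bp, were covered over 5215, 4863 and 4766 bp in CDK8KD. Control covered 5104, 6186 and 5547 bp, and CDK19KD 5152, 5289 and 4360 bp. Relative to all constant regions of the same library, CDK8KD stood at 1.003, 0.941 and 0.914, Control at 1.09 to 1.20 and CDK19KD at 0.967 to 1.17. On that scale all Control libraries were above all CDK8KD libraries, while CDK19KD overlapped with both. The number of constant regions within 500 kb on either side did not mark the members. Its median was 19 for gained, 18 for lost and 18 for all merged regions.

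Gained and lost regions also divided the chromosomes unequally. Chromosomes 19 to 22 held 34 gained regions (11.9%) and no (0) lost region. They held 6.93% of regions held by exactly 3 lists and 6.6% of those held by exactly 6. Chromosome 17 had 21 gained regions (7.37%, against 4.63% of regions held by 3 lists) and chromosome 16 had 16 (5.61%, against 2.60%). Chromosomes 3 and 4 had 10 and 9 gained regions (3.51% and 3.16%), where 6.96% and 7.01% of regions held by 3 lists lay. Lost regions were most numerous on chromosome 1, with 14 (12.4%), where 9.78% of regions held by 6 lists and 10.2% of all merged regions lay. Chromosomes 4 and 6 had 11 each (9.73%, against 7.12% and 6.42% of regions held by 6 lists). The regions gained in CDK19KD had 2.43% of their number on chromosomes 19 to 22. These chromosomes were picked after their values were seen, and no difference was tested.

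**Figure D5:**
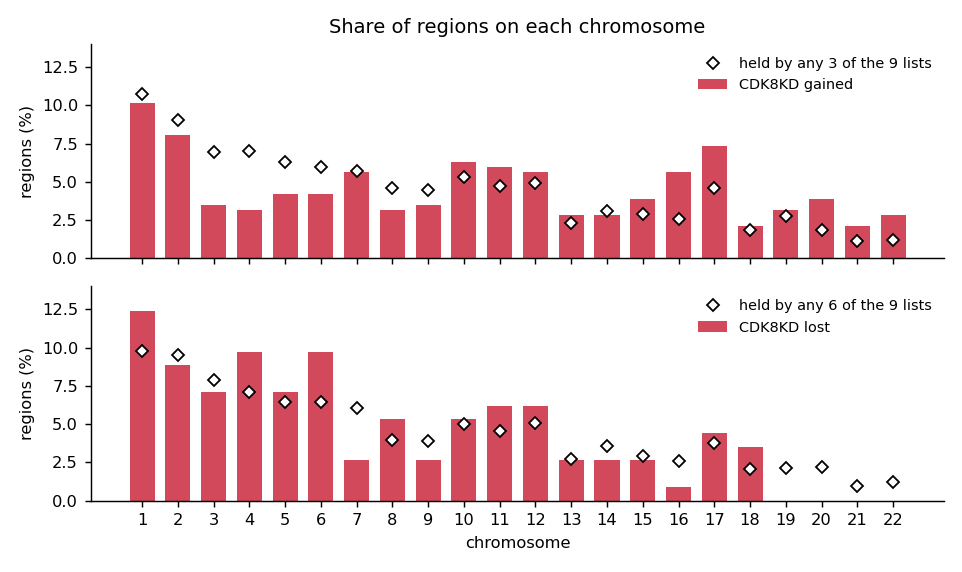
Share of gained (top) and lost (bottom) regions on each chromosome (bars, %), with diamonds for all regions held by the same number of lists, 3 or 6. Chromosomes 16 and 17 carry 5.61% and 7.37% of gained regions, and chromosomes 19 to 22 carry 0 lost regions.

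Regions just outside the rule were more numerous than the members. A further 1279 regions were held by 2 CDK8KD lists and no other, and CDK8KD replicate 1 was the list that lacked 692 of them (54.1%), replicate 2 387 and replicate 3 200. Another 471 were held by all 3 CDK8KD lists and by 1 other, which was each Control library in 94 to 98 regions and each CDK19KD library in 48 to 75. The extra peak was weak, with a median −log10 p of 2.50 to 2.78 depending on the library. The median of the mean percentile was 21.3 and 29.4 in these 2 kinds of region, below and above the 27.7 of gained members. Within 5 Mb of an end lay 24.2% and 15.7% of them.

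On the side of the lost regions, 354 were held by 6 other lists and 1 CDK8KD list, which was replicate 1 in 177 (50%). A further 370 were held by no CDK8KD list and lacked 1 of the other 6, most often Control replicate 3 (145) and Control replicate 1 (87). The median of the mean percentile was 37.4 and 29.3 in these, against 34.2 in lost members. Within 5 Mb of an end lay 4.80% and 1.89%. The limits of both sets were thus drawn among peaks of like strength, and a single weak call moved a region in or out.

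The number of members depended on each list. Without CDK8KD replicate 1, 2 or 3 the rule gave 1044, 698 or 537 gained regions with a median width of 1538, 1618 or 1486 bp, and 292, 204 or 201 lost regions. Without Control replicate 1 or 3 there were 203 or 264 lost regions. Fewer lists make the rule easier to meet, so a rise is built into this step. With the 20000 strongest peaks the rule picked 106 gained and 46 lost regions, and with a −log10 q of at least 5 it picked 32 and 8. These were other regions, not members that remained. For gained members the reason is given above. No lost member had a peak among the 20000 strongest of Control replicate 1, and none reached the −log10 q limit in Control replicate 2.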

How the data were processed

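Each of the 9 H3K27ac libraries (3 each of Control, CDK19KD and CDK8KD, grouped by title) came with 1 list of broad peaks, so the authors called peaks per library. MACS2 and deepTools and the build hg19 are named in the submitters' processing notes, and MACS2 in the peak names; versions, settings, the control library, the aligner and read depth are not given in the sources used here. The deposited values are a fold enrichment (a linear ratio), a −log10 p-value and a −log10 q-value per peak, and a deposited score, left unused, that in nearly all peaks is the integer part of 10 times the −log10 q. They describe and rank peaks within their own list. Hits of at least 1 bp counted as holding a region.

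The members and lists were chosen with earlier results of these data known. Named regions are, per direction, the 8 strongest by mean percentile of −log10 p, the 3 widest, the 2 weakest and members of the 2 windows of 1 Mb with the most members (ties in chromosome order), plus regions singled out after their values were seen. Chromosome ends, their alternatives and the neighbouring constant regions were chosen after seeing the data. Chromosome X was left out by the rule. The rule was run on simulated lists, where it found each planted region. There the peaks of a region shared a midpoint and regions lay well apart. This checks the code only, since regions without a base common to their lists were not simulated. Python 3.11.15, numpy 2.4.6, pandas 2.3.3 and matplotlib 3.10.9 were used. The design named a gene and sequence context, which was not analysed here.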

Additional observations from a re-analysis of the deposited data

Results flagged for a closer look

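Chromosome X lay outside the rule. The same merging and the same conditions gave 13 gained regions among its 3051 merged regions (0.426%) and 6 lost regions (0.197%). They are given because no count above includes this chromosome. The regions gained in CDK19KD numbered 15 there and those gained in Control 4, and each of these groups had 3 lost regions. The strongest gained region of chromosome X by its lowest −log10 p was chrX:135109394-135115104, with 3.30, 3.39 and 3.74 in CDK8KD replicates 1, 2 and 3. No explanation was tested. Groups of 3 libraries are too small for a check of single outlying libraries.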

How the results depend on the processing

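No paired analysis was possible because the counts, widths and shares of members come from no test. For the share of peak length near ends, differences at equal replicate number are printed beside it as a description. The share near chromosome ends, zones of 2 and 10 Mb, and the run without chromosomes 7 and 17 were chosen after seeing the data. In all, 815 alternative values were computed; of those for the 6 main results 77 stayed within the limits set for a like value and 41 moved. With a −log10 q of at least 5, gained and lost regions numbered 32 and 8, median widths were 6982 and 7930 bp, and 15.6% and 0% lay within 5 Mb of an end. The 20000 strongest peaks gave 106 and 46 regions, 6964 and 7517 bp, and 12.3% of gained regions near an end. The 40000 strongest gave 61 lost regions, 3833 and 5202 bp, and 18.1% of gained and 6.56% of lost regions near an end, against 8.77% of all regions. Peaks of at least 500 bp gave 2688 and 3677 bp. With 50% of the region covered there were 664 gained regions, widths of 4788 and 5276 bp, and 20.3% near an end. With 1 library allowed to deviate there were 2035 gained and 837 lost regions, and gained ones had a median of 1756 bp. Zones of 2 and 10 Mb held 16.1% and 36.1% of gained regions, against 4.13% and 15.5% of all merged regions. Leaving out each library gave 333 to 1044 gained and 135 to 292 lost regions, widths of 1486 to 2582 bp and 2908 to 3600 bp, and 21.8% to 27.1% and 1.97% to 4.98% near an end. Fewer peaks enter the settings that limit strength or width, and fewer lists enter where a library is left out. The cover, deviation and zone settings keep all peaks and lists and change the rule or the zone instead. The cause of the moved values was not tested. Of the 27 gained and 14 lost regions named by rule, 0 kept the full pattern under the −log10 q limit or with 20000 peaks. In 22 and 8 of them no difference between the sides was left under the −log10 q limit. With 50% of the region covered 4 gained and 0 lost regions kept the full pattern, and with the 40000 strongest peaks 4 and 1 did. It was kept by 23 and 10 with peaks of at least 500 bp, and by 24 and 12 with peaks merged within 1000 bp. Unknown depth limits every absence: a region without a listed peak may still be acetylated.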
